A study of Mus musculus with 2 samples.

Results

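A set of 10 genes of the oxidative stress response, most of them targets of the transcription factor NRF2, was followed in mouse liver: Gclc, Gclm, Txnrd1, Srxn1, Nqo1, Ephx1, Ugdh, Taldo1, Sod2 and Cat. They were chosen by name, as the probes whose gene symbol in the array's annotation is on this list. All 10 were found, on 11 of the 20686 named probes, out of 19318 named genes, and all 10 gave signal above background on both arrays. Whole liver of 24-week-old mice was measured on 2 single-colour microarrays. The control liver carried Twist2-Cre, and the other carried Twist2-Cre together with A20fl/fl, the floxed alleles of the ubiquitin-editing enzyme A20 (gene Tnfaip3). Both livers therefore carried the Cre, which recombines floxed alleles in cells of mesenchymal origin, whereas hepatocytes, the main cells of the liver, are not of that lineage. Neither the substrain of the mice nor how many animals gave each RNA is stated in the labels. Since each genotype had 1 array, no difference was tested, and the error across animals is unknown.

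NRF2, encoded by Nfe2l2, is held in the cytoplasm and degraded through KEAP1. Oxidants and electrophiles modify KEAP1, NRF2 then accumulates, pairs with a small MAF protein in the nucleus and binds the antioxidant response element. Its targets make glutathione, reduce thioredoxin and peroxiredoxins, detoxify quinones and epoxides and supply NADPH. Sod2 and Cat, which remove superoxide and hydrogen peroxide, belong to the same defence but answer to other factors as well, and Sod2 is a known NF-kB target.

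The core of the antioxidant response element was searched in the RefSeq promoter windows (GRCm38.p6, from 250 bases before to 50 bases after each start site) of the genes, since it is the sequence that NRF2 targets are known for. Windows were found for 9 of the 10 genes, all but Gclc, 11 windows in all. The letters TGACNNNGC, read on both strands, occurred in 4 of these windows, those of Gclm, Srxn1, Txnrd1 and Ugdh, compared with 12.4% of all 32851 windows. Ugdh had a match 132 bases and another 94 bases before its start (chr5:65435946-65435994 and chr5:65435908-65435956, minus strand). Gclm had its match at 134 bases (chr3:122245403-122245451, plus strand), and Txnrd1 at 92 bases before a start that lies inside the gene (chr10:82859094-82859142, plus strand). The match of Srxn1 began 28 bases after its start and is not printed. Srxn1 was also the only gene of the set with the AP-1 element TGANTCA, which 7.81% of windows held, at 102 and at 45 bases before its start (chr2:152105402-152105448 and chr2:152105459-152105505, plus strand). The letters GGGNNTTTC, which begin a common NF-kB element, were in none of the 11 windows and in 4.36% of all windows. Other forms of that element were not searched, so nothing about NF-kB is read from its absence. None of the AP-1 matches overlapped a TGACNNNGC match. That string has a fixed C after TGA. The AP-1 match of Srxn1 at 45 bases reads TGAGTCAgc, with G in that place, so it could not be counted. Whether it also serves as an antioxidant response element was not tested. The windows below are written 5′ to 3′ in the direction of the gene with the match in capitals.
Ugdh, core at 132: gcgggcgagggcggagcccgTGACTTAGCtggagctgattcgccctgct
Ugdh, core at 94: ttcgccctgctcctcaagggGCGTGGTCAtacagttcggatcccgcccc
Gclm, core at 134: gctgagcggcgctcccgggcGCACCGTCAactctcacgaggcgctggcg
Txnrd1, core at 92: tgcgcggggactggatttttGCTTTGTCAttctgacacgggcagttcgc
Srxn1, AP-1 at 102: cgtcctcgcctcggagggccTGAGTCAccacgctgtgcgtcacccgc
Srxn1, AP-1 at 45: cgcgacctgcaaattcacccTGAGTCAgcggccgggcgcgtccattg

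The 10 genes were at similar levels in both livers, with no common direction. Ugdh was the largest difference, 1.52-fold higher in the Twist2-Cre/A20fl/fl liver. Ephx1, Taldo1, Srxn1, Nqo1 and Gclc were 1.13- to 1.23-fold higher, and Gclm, Sod2, Cat and Txnrd1 were 1.05- to 1.07-fold lower. All ratios below are log2 of Twist2-Cre/A20fl/fl over control on a normalized scale, on which an added constant (offset) shrinks the differences of dim genes. Beside them stand the deposited intensities, which are linear, less a background and in arbitrary units. Their sizes depend on the probe, so levels are not compared between genes.

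As a guide to error, probes of 1 gene differed in their ratio by 0.13 (SD, 716 genes with several probes), and the 200 genes nearest in level to each of the 10 had a spread of ratios between 0.16 and 0.36 (SD). The absolute ratio was smaller than the spread of its neighbours in 8 of the 10 genes. The exceptions were Ugdh (0.61 against 0.30) and Nqo1 (0.18 against 0.16). Neither spread measures variation between animals. The share of all genes inside the spread of their neighbours was not computed, so the count of 8 is not read as a trait of the set.

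Read against the other genes on the arrays, 1 of the 10 was at least 1.5-fold higher and none at least 1.5-fold lower, where 1.70% and 0.417% of the 14143 genes above background on both arrays were. None of the 10 was past 2-fold, which 0.636% of all genes were on the higher side and 0.0778% on the lower side. At any size 6 were higher and 4 lower, compared with 42.2% and 57.7% of all genes. Their median ratio was 0.18, and that of all genes was -0.02. In the deposited intensities none of the 10 was past 1.5-fold (7.95% of all genes higher, 4.75% lower) or 2-fold (3.54% and 0.728%). With 10 genes a count of 1 is the smallest above 0, so nothing particular to the set is read from it.

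**Figure D1:**
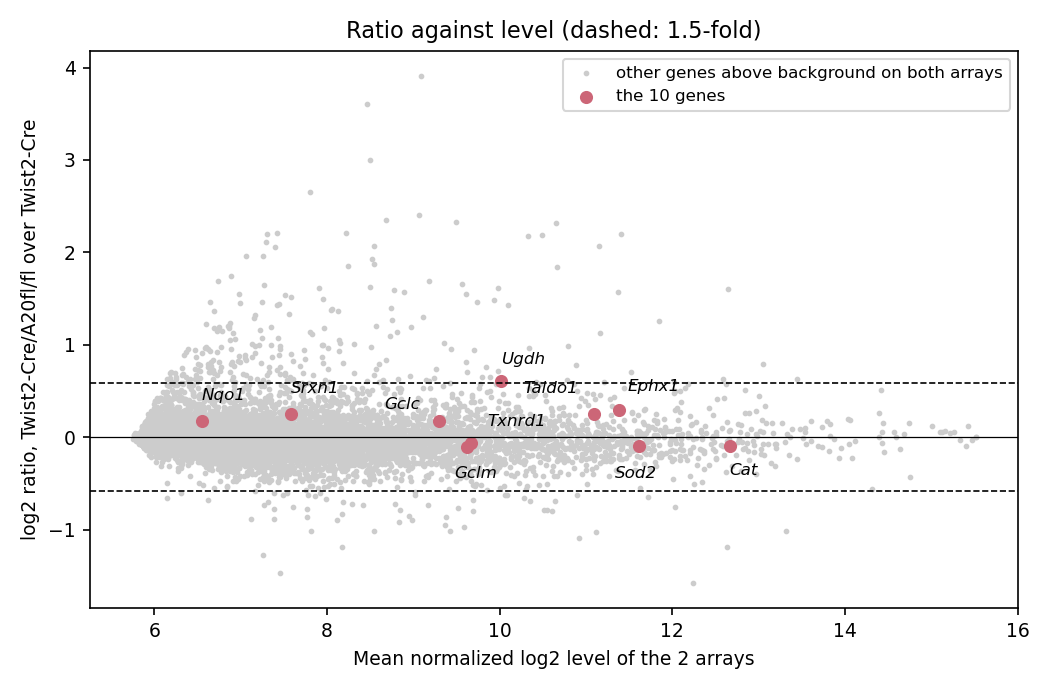
Log2 ratio of Twist2-Cre/A20fl/fl over Twist2-Cre (vertical axis) against the mean normalized log2 level of the 2 arrays (horizontal axis) for the 14143 genes above background on both arrays (grey points) and the 10 genes (red points, named). Dashed lines mark 1.5-fold; Ugdh lies at the upper line with a ratio of 0.61, and the other 9 lie between -0.10 and 0.30.

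Glutathione is made by glutamate-cysteine ligase, a pair of subunits. Gclc, the catalytic subunit and rate-limiting for synthesis, had a deposited intensity of 462 in the control and 510 in the Twist2-Cre/A20fl/fl liver, a ratio of 0.17. Gclm, the modifier subunit that raises the enzyme's affinity for glutamate, had 658 and 580, a ratio of -0.10. The 2 subunits thus lay on opposite sides of 0, each by less than the ratios of genes nearest in level varied (SD 0.27 and 0.33).

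Thioredoxin reductase 1, Txnrd1, uses NADPH to keep cytosolic thioredoxin reduced. Its deposited intensity was 672 in the control and 607 in the other liver, and its ratio of -0.06 was the nearest to 0 of the set. Sulfiredoxin, Srxn1, which restores over-oxidized peroxiredoxins, was read by 2 probes. The first gave 31 and 43 (ratio 0.20) and the second 243 and 304 (ratio 0.30). Both probes were thus higher in the Twist2-Cre/A20fl/fl liver, with a mean ratio of 0.25 beside a spread of 0.26 among genes of like level.

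Among the detoxifying enzymes all 3 were higher in the Twist2-Cre/A20fl/fl liver. Nqo1, the quinone reductase that often serves as the readout of NRF2, was dim, with deposited intensities of 29 and 39. Its ratio was 0.18 on the normalized scale and 0.43 in the deposited values, where no offset shrinks it. Ephx1, the microsomal epoxide hydrolase, had 2049 and 2384, a ratio of 0.30. Ugdh, which makes the UDP-glucuronic acid that conjugation by UDP-glucuronosyltransferases consumes, had 680 and 1004, a ratio of 0.61. Ugdh and Ephx1 are also known targets of the xenobiotic receptor CAR, whose list is described below.

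Taldo1, the transaldolase of the pentose phosphate pathway, had deposited intensities of 1677 and 1911 and a ratio of 0.25. Sod2, the manganese superoxide dismutase of mitochondria, had 2810 in the control and 2415 in the Twist2-Cre/A20fl/fl liver, a ratio of -0.10. Cat, the catalase of peroxisomes, had 5788 and 5058, a ratio of -0.09. Both scavengers were therefore slightly lower where A20 was targeted, by less than the spread of 0.30 among genes of their level.

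**Figure D2:**
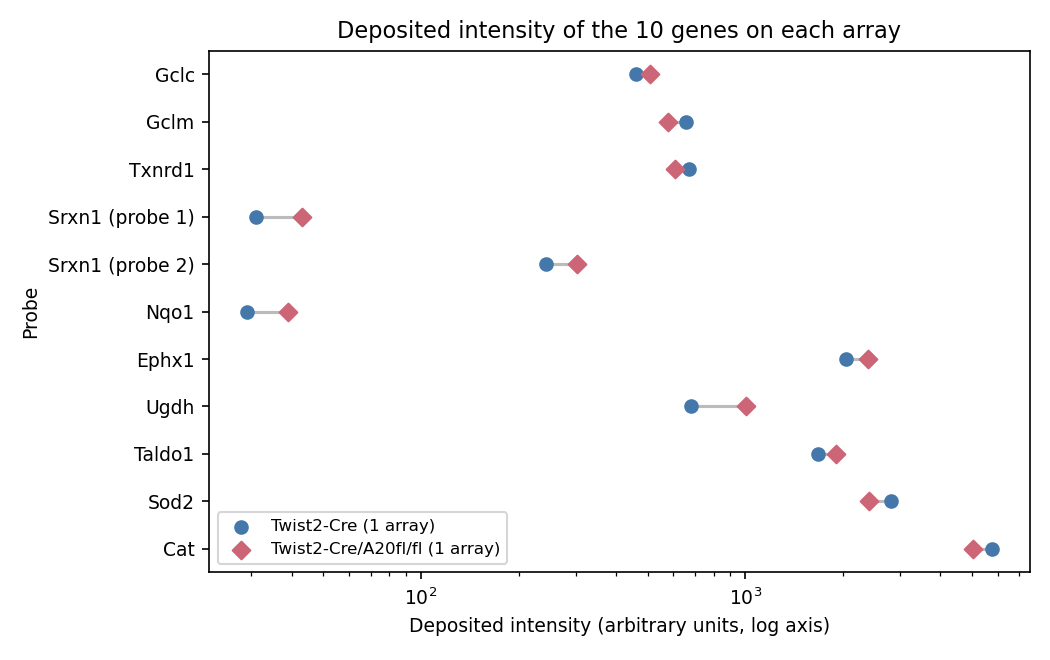
Deposited intensity (horizontal log axis, arbitrary units) of each probe of the 10 genes on the Twist2-Cre array (blue circles) and the Twist2-Cre/A20fl/fl array (red diamonds), 1 array each, so there are no error bars. The widest gap on the log axis is that of Ugdh (680 and 1004), and Gclm, Txnrd1, Sod2 and Cat lie to the left on the Twist2-Cre/A20fl/fl array.

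The direction of 7 of the 10 genes was the same in all 8 ways of processing that give a value per gene. When the scanner's local background column stood for background, Nqo1 (-0.08), Gclc (-0.24) and Ephx1 (-0.01) turned lower. In the same setting Taldo1 had a ratio of 1.47 and Sod2 -0.61. Across the spots of each array that column was higher around brighter spots. Between the arrays it went from 1849 in the control to 1482 around Taldo1, whose spot read 2019 and 2387, and from 1756 to 1409 around Sod2, whose spot read 3337 and 2998. Ugdh had a ratio of 0.39 there and 0.56 in the deposited values, both under 1.5-fold, and between 0.59 and 0.64 in the other settings. Without the local background column all 10 genes kept their direction.

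**Figure D3:**
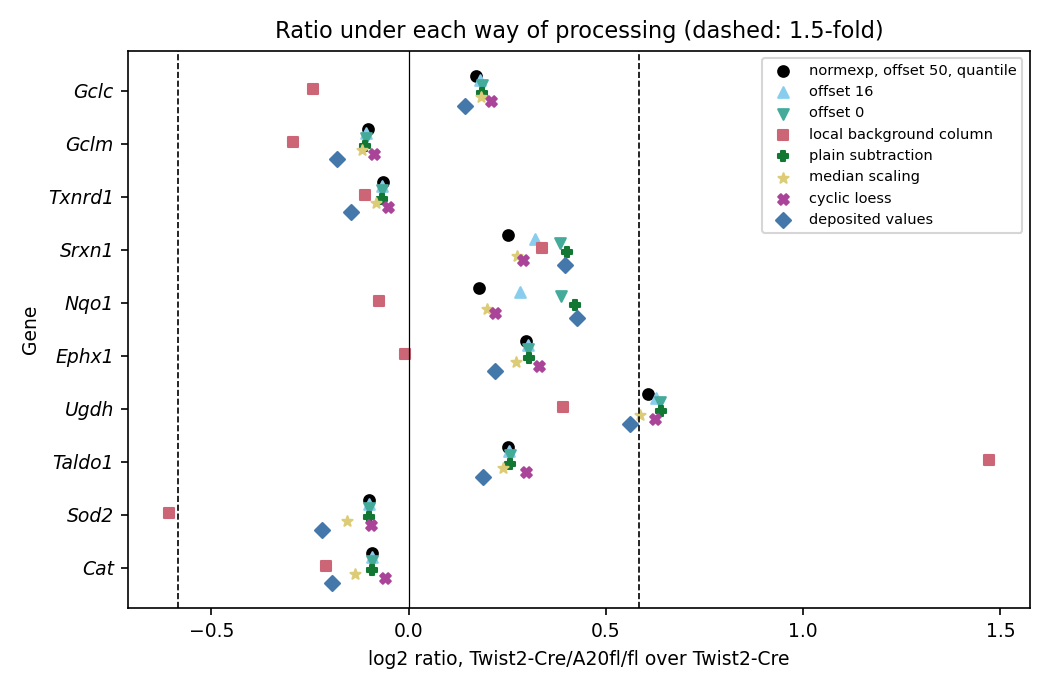
Log2 ratio of Twist2-Cre/A20fl/fl over Twist2-Cre (horizontal axis) of each of the 10 genes under 8 ways of processing (marker shapes); dashed lines mark 1.5-fold. The local background column (red squares) gives the widest departures, 1.47 for Taldo1 and -0.61 for Sod2, and without it each gene keeps its direction.

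The factors that govern the response differed little. Of 13 measured regulators 9 were higher and 4 lower, none past 1.5-fold, with a median ratio of 0.05. With the local background column only 4 of the 13 were higher, with a median of -0.07. Nfe2l2 itself had deposited intensities of 51 and 66 and a ratio of 0.21, and was higher in every setting. Keap1, the sensor that targets NRF2 for degradation, had 279 and 284, a ratio of 0.05, and -0.76 against the local background column. Sqstm1, the autophagy receptor p62 that sequesters KEAP1 and is itself an NRF2 target, had the largest ratio of the list, 0.39 (614 and 777), but -0.32 against the local background column. The small MAF partners Mafk (0.36, 21 and 40) and Mafg (0.13, 54 and 63) followed, with Mafg at -0.07 against the local background column. NRF2 is regulated mainly as a protein, which arrays do not measure.

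The wider glutathione and thioredoxin systems lay around 0. Of 19 genes of glutathione synthesis and use 9 were higher and 10 lower, none past 1.5-fold, with a median ratio of 0.00. The peroxidases Gpx7 (0.29, 13 and 26) and Gpx4 (0.23, 837 and 945), the latter the enzyme that reduces lipid peroxides in membranes, and glutathione reductase Gsr (0.22, 110 and 135) were on the higher side. Glrx5, a mitochondrial glutaredoxin of iron-sulfur cluster assembly, was on the lower side (-0.22). Against the local background column Glrx5 turned to 1.06, Gpx7 was at -0.01 and Gpx4 at 1.69. Of 17 genes of the thioredoxin, peroxiredoxin and sulfiredoxin system 8 were higher and 9 lower, none past 1.5-fold, with a median of 0.00. After Srxn1 the largest ratios were those of the peroxiredoxin Prdx2 (-0.19, 1526 and 1274), the mitochondrial reductase Txnrd2 (-0.18) and Sesn2 (-0.14).

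Conjugating enzymes were split. Of 26 genes in the list of quinone, epoxide and conjugating enzymes 14 were higher, 11 lower and 1 equal, with a median of 0.02, and 0.00 over the 23 that are not among the 10 genes. Past 1.5-fold were Ugdh on the higher side and, on the lower, Mgst3 (-0.79, deposited intensity 470 and 248), a microsomal glutathione transferase, which was at 0.52 against the local background column. The glutathione transferase Gstm2 had a ratio of 0.33 (495 and 609). Glutathione transferases of the mu class are close in sequence, so the share of each in its probe's signal is uncertain.

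Enzymes that supply NADPH held wide ratios in opposite directions, though most of the list lay near 0. Nnt, the transhydrogenase that makes NADPH in mitochondria, had deposited intensities of 60 in the control and 161 in the Twist2-Cre/A20fl/fl liver, a ratio of 0.99. The C57BL/6J substrain is known to carry a deletion in Nnt, and whether these mice differed in that allele was not tested. Me1, the cytosolic malic enzyme that feeds NADPH to fatty acid synthesis and is also an NRF2 target, had a ratio of -0.79 (1641 and 893). H6pd, which makes NADPH in the endoplasmic reticulum, was at 0.24, close to Taldo1. Over the 12 genes 7 were higher and 5 lower, with a median of 0.01. Nnt was at 0.32 against the local background column, and Me1 was lower in every setting, from -0.88 to -0.41.

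Scavengers of superoxide and peroxide were 6 higher and 6 lower of 12, none past 1.5-fold, with a median of -0.01. Sod1, the cytosolic copper-zinc dismutase, was lower, as was mitochondrial Sod2, with a ratio of -0.26 (652 and 517). Park7, the redox-sensitive protein DJ-1, was also at -0.26 (2307 and 1820) but at 1.53 against the local background column, and the paraoxonase Pon2 was at 0.16. Peroxisomal genes, the companions of Cat, were 13 higher and 12 lower of 25, with a median of 0.03 and none past 1.5-fold. They ranged from Hsd17b4 (-0.23), an enzyme of peroxisomal beta-oxidation, to Pxmp2 (0.26) and the phytanic acid hydroxylase Phyh (0.27). Abcd3, a peroxisomal transporter, was at 0.25, but at -1.10 against the local background column, where Pxmp2 was at 2.46 and Phyh at 0.74.

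Genes of haem, iron and metal defence held the largest ratios of the redox lists. Of 14 measured 13 were higher and 1 lower, 4 past 1.5-fold and 3 of them past 2-fold, with a median of 0.19. In the deposited values 11 of the 14 were higher, and with the local background column 10. Hmox1, the haem oxygenase that NRF2 and the repressor BACH1 control, had deposited intensities of 210 and 510 and a ratio of 1.14, that is 2.21-fold, with 0.78 to 1.30 over the settings, the lowest, under 2-fold, against the local background column. The metallothioneins Mt2 (2.07, 904 and 3691) and Mt1 (1.60, 3216 and 9091), which bind zinc and copper and respond to metals, glucocorticoids and cytokines, had the largest ratios of all redox genes named here. Haptoglobin, Hp, an acute phase protein that binds free haemoglobin, was at 0.63 (7864 and 11054), and at -0.02 against the local background column. Hmox1 was past 2-fold, and the 10 genes, most of which are NRF2 targets too, ranged from -0.10 to 0.61.

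Hmox1 is also strongly expressed by macrophages. Markers of these cells are given beside it, though 2 arrays cannot show whether they vary together. The macrophage and Kupffer cell markers were all higher, 13 of 13 measured, 7 of them past 2-fold, with a median ratio of 1.02. Over all genes 42.2% were higher and 0.636% at least 2-fold higher. The summed deposited intensity of these markers was 2753 in the control and 9191 in the Twist2-Cre/A20fl/fl liver. With the local background column 11 of the 13 were higher, 4 past 2-fold, with a median of 0.29. Clec4f (-0.01) and Vsig4 (-0.09) were lower there. In the deposited values all 13 were higher, 11 past 2-fold. Of the 14143 genes, 419 were past 2-fold higher with the local background column and 500 (3.54%) in the deposited values. The defining markers Adgre1 and Itgam were not well above background on at least 1 array. The 8 measured T and NK cell markers were all higher (median 0.44), their summed intensity 74 and 266. Their median was 0.07 with the local background column, where 7 of 8 were higher, 1.82 with plain subtraction and 1.95 in the deposited values. Of the neutrophil markers 7 of 9 were higher (median 0.04, and 0.41 in the deposited values; summed intensity 552 and 613). The part of these cells in the ratio of Hmox1 was not tested, and in bulk tissue more cells of a type cannot be told apart from more RNA per cell. The 15 measured hepatocyte markers, by contrast, were 5 higher, 9 lower and 1 equal, with a median of -0.04. All were above background on both arrays. Their median was -0.14 in the deposited values, where 3 were higher, and -0.13 with the local background column, where 5 were higher. Albumin, Alb, had 37445 and 36770, a ratio of 0.13, and -0.47 with the local background column. Pericentral hepatocyte genes, of the zone where xenobiotic enzymes such as Ephx1 are concentrated, were 10 higher and 1 lower of 11 (median 0.14). Periportal genes were 4 higher and 4 lower of 8 (median 0.07). With the local background column the order turned, with a pericentral median of 0.05 (9 higher) and a periportal median of 0.22 (5 higher). In the deposited values they were 0.14 (8 higher) and 0.01 (4 higher). Markers of stellate cells and fibroblasts had a median of 0.08 over 12 genes, those of sinusoidal endothelium -0.35 over 7 and those of bile duct cells -0.19 over 4. These 3 medians were 0.46, -0.57 and -0.65 in the deposited values and 0.02, -0.09 and -0.11 with the local background column.

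Other factors that act on the same genes gave no common picture. The xenobiotic receptors PXR and CAR and their targets, without Ugdh and Ephx1, were 7 higher and 7 lower of 14, with a median of 0.01. The genes of both receptors are counted among the lower. The cytochromes Cyp3a11 (0.99, 1039 and 1983) and Cyp2c55 (0.82, 23 and 75) were past 1.5-fold higher, and Alas1, the first enzyme of haem synthesis, was 2.14-fold lower (2396 and 1039). Gadd45b was at 0.24. With the local background column Cyp3a11 turned to -0.14 and Gadd45b to -0.01, Cyp2c55 was at 0.13, under 1.5-fold, and Alas1 was at -0.50. Cyp2c55 was at 1.71 in the deposited values. Genes of the aryl hydrocarbon receptor, which shares Nqo1 with NRF2, were 6 higher and 1 lower of 7, none past 1.5-fold, with a median of 0.12. Only 4 of the 7 were higher with the local background column, and 4 in the deposited values. In the deposited values 2 were past 2-fold higher, both near background, where 3.54% of all genes were. The glucuronosyltransferase Ugt1a6a was at 0.24 (150 and 182), and Cyp1a2 at 0.14 with near equal deposited intensities (3979 and 3952), and at 1.06 against the local background column. Cyp1b1 was at 0.12, near background at 2 and 7.

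**Figure D4:**
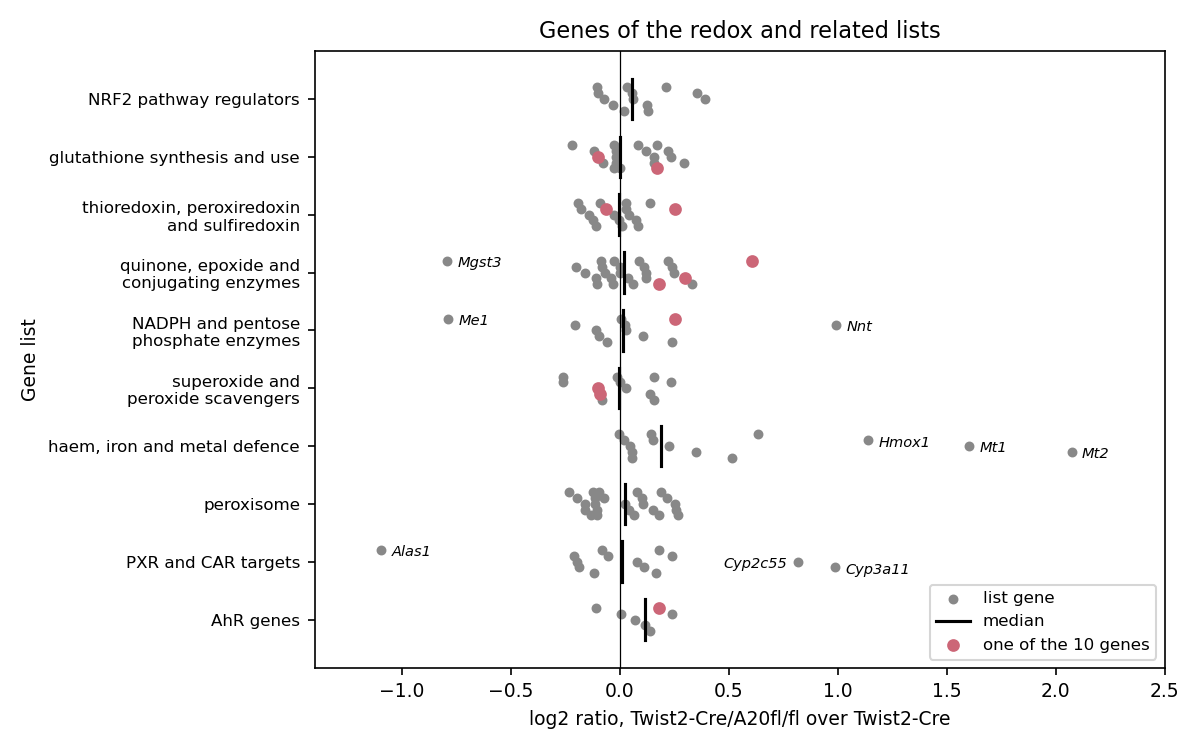
Log2 ratio of Twist2-Cre/A20fl/fl over Twist2-Cre (horizontal axis) of each gene above background on both arrays in 10 gene lists (rows); red points are the 10 genes, grey points the other genes of a list and black lines the medians, and vertical position within a row only separates points. The medians of 8 of the 10 lists lie between -0.01 and 0.05, while the haem, iron and metal list has a median of 0.19 and reaches 2.07 for Mt2.

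The promoter matches did not sort the genes by direction. Of the 4 genes with the core of the antioxidant response element in their windows, Ugdh (0.61) and Srxn1 (0.25) were higher and Gclm (-0.10) and Txnrd1 (-0.06) lower. Over all genes above background on both arrays, the 1784 with the core in a window had a median ratio of -0.01 and 39 (2.19%) at least 1.5-fold higher. The 9374 genes whose windows lack it had a median of -0.02 and 148 (1.58%). These windows are short, only the letters TGACNNNGC were counted as the core, and elements farther away were not searched.

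Tnfaip3, the targeted gene, had deposited intensities of 41 and 38 and a ratio of -0.07. The part of the transcript that its probe reads was not known, so this value does not check the genotype. Across the arrays, 73.8% of gene probes on the control array and 73.6% on the other were above background.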

How the data were processed

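Per the labels' protocols, total RNA was amplified as amino allyl aRNA, coupled to Cy5 and fragmented. Per the file headers, the scanner files hold, for every spot at 635 nm, a median intensity and a local background, from 3 gains joined by least-squares lines. The deposited table holds linear intensity. How the authors made it is not stated in the labels or headers; on the values it is a line through spot intensity (slope 0.859 control, 0.825 Twist2-Cre/A20fl/fl) that meets 0 at 67.1 and 69.2, close to the mean of the 384 blank spots (67.2 and 69.3). Its median was 25 on both arrays, it is not centred on genes, and each column holds the levels of 1 sample. No scanner or array name is stated there.

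Spot intensity was corrected with normexp (limma 3.58.1, R 4.3.3, offset 50) against the mean of the blank spots, in a fit that left out only spots without a probe. Control spots and 4 flagged spots were then left out, and arrays were quantile-normalized on the log2 scale. The local background column was not used because it correlated with the spot's signal (r = 0.988 and 0.972 over gene probes, log2); it is an alternative. A gene's value is the mean of its probes. Above background means over the blank mean plus 2 SD (69.5 and 72.2). Symbols came from the platform annotation: 20690 of 23473 probes had 1 symbol, 0 several and 2783 none. Only 1 array per genotype limits the precision. The steps were tested on simulated data.

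Fixed folds of 1.5 and 2 replaced a test. Genes named were the 10, Tnfaip3, Nfe2l2, Keap1, Hmox1 and, of each of 10 pathway lists, the 4 with the largest absolute ratio; Alb, Adgre1 and Itgam were named after their values were seen. Members and lists were chosen with earlier results of these data known. No gene was sought for a like pattern, since 2 arrays give none.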

Additional observations from a re-analysis of the deposited data

How the results depend on the processing

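In all, 9 alternatives were computed for the 10 genes: offsets of 16 and 0, plain subtraction of the blank mean, the local background column, median scaling, cyclic loess, the deposited values, the brightest probe and no filter on dim genes. No paired analysis was possible because each genotype has 1 array. A value was said to move when it differed by more than 0.13, the SD between probes of 1 gene. Against the local background column the median of the 10 genes was -0.093 in place of 0.18, 3 were higher and 7 lower in place of 6 and 4, 1 was past 1.5-fold lower (Sod2) and 1 past 2-fold higher (Taldo1), in place of 0 and 0. The count past 1.5-fold higher was 1 there too, but the gene was Taldo1 and not Ugdh. In that setting the medians of the scavenger and of the PXR and CAR lists were both -0.19. In the deposited values 0 genes were past 1.5-fold higher in place of 1. The median of the aryl hydrocarbon receptor list, 0.12, was 0.30 with offset 0, 0.30 with plain subtraction and 0.28 in the deposited values. Median scaling, cyclic loess, offset 16, the brightest probe and no filter moved none of these counts or medians. For the 10 genes the last could not, since all 10 were above background. The brightest probe could alter only Srxn1, the only one of them with 2 probes. Over all 14143 genes, 240 were past 1.5-fold higher and 59 lower (80.3% higher), and 90 and 11 past 2-fold (89.1%). The shares past 1.5-fold were 60.2% with plain subtraction (952 and 629), 55.8% against the local background column (781 and 619), 62.6% in the deposited table (1125 and 672) and 73.3% with offset 0 (692 and 252). The numbers past 2-fold ranged from 90 to 500 higher and from 8 to 191 lower over the settings. The median of all genes lay between -0.05 and 0.00.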
